A study of Mus musculus with 12 samples.

Results

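The genes described here are the mouse proteasome subunits and their close partners, taken by symbol from count tables of the adult heart. A gene was included when its symbol began with Psma, Psmb, Psmc, Psmd, Psme or Psmf followed by a digit, which gave 46 of the 21669 listed transcript names. By role these were 7 alpha and 7 beta subunits of the constitutive 20S core, the 3 immunoproteasome beta subunits Psmb8, Psmb9 and Psmb10, and 2 tissue-restricted core subunits (Psma8, known from testis, and Psmb11, known from thymus). The 19S regulatory particle contributed 6 ATPases, 11 non-ATPase subunits and the 3 assembly chaperones Psmd5, Psmd9 and Psmd10. The remaining names were 5 activators, the inhibitor Psmf1, and Psmc3ip, a meiotic recombination protein that the symbol rule took in although it is not a proteasome subunit. The libraries came from left ventricles of adult mice, measured by ribosome profiling and RNA sequencing, with genotype either wild type (WT) or Rpl3l-/- (KO). *Rpl3l* encodes a striated-muscle paralog of the ribosomal protein of *Rpl3*. Each genotype gave 3 libraries of ribosome-protected fragments (RPF, the stretches of mRNA that ribosomes shield from RNase I) and 3 of poly(A)-selected RNA, 12 libraries in all, which the design text calls biological triplicates. Both genotypes went through the same lysis in a buffer with cycloheximide, a drug that arrests elongating ribosomes. Strain, sex and the extent of the Rpl3l deletion are not given in the sources used here.

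The proteasome is the protease that degrades proteins tagged with ubiquitin. Rings of alpha and beta subunits form its barrel-shaped core, in which only some of the beta subunits carry a catalytic site, and the 19S particle binds, unfolds and feeds in the substrate through a ring of ATPases and a lid and base of non-ATPase subunits. Interferon induces the immunoproteasome subunits, which replace the constitutive catalytic subunits Psmb5, Psmb6 and Psmb7 (chymotrypsin-like, caspase-like and trypsin-like) and change the peptides offered for antigen presentation. In cardiac muscle the proteasome turns over sarcomeric and mitochondrial proteins.

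Next, 2 sets of sequences are shown, all from the GENCODE M21 transcripts (GRCm38) whose names match those in the tables. The first set is the start-codon context of the 5 genes with the highest and the 5 with the lowest ratio of footprints to RNA in WT hearts, the measure described further on. Each line gives 10 bases of the 5′ UTR, the start codon in capitals and the next base, and the 5 genes of high ratio come first.
Psmf1: gcaaacatccATGg
Psmd5: agccagggagATGg
Psmd11: gagcggtaagATGg
Psme4: ccccgggctaATGg
Psmd3: cccgggcgccATGa
Psme2: ggggggaagcATGg
Psmb10: ttcctgcgagATGc
Psmb8: ccaagtggtcATGg
Psma4: ttcagaaaccATGt
Psmc1: ctgaaggaagATGg
The genes of high ratio lie at chr2:151715812-151741310 on the minus strand (Psmf1), chr2:34849734-34870962 on the minus strand (Psmd5) and, on the plus strand, chr11:80428625-80473248 (Psmd11), chr11:30771726-30880361 (Psme4) and chr11:98682554-98695979 (Psmd3). Those of low ratio lie at chr14:55587441-55591087 (Psme2) and chr8:105935739-105938444 (Psmb10) on the minus strand, and at chr17:34197790-34201454 (Psmb8), chr9:54950790-54958030 (Psma4) and chr12:100110154-100123405 (Psmc1) on the plus strand. An A or G at the third base before the start codon, the base known to matter most for start-site choice, was present in 42 of the 46 genes (91.3%) and in 84.8% of 20305 listed coding transcripts. Psmc2, Psmc3, Psme4 and Psmf1 lacked it. Of these, Psme4 and Psmf1 were among the 5 highest ratios, while Psmc2 (log2 ratio -0.67 in WT) and Psmc3 (-1.87) were lower in footprints than in RNA. All 5 contexts of low ratio had an A or G there.

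The second set concerns Psme2, a subunit of the interferon-inducible PA28 activator, and Psme2b, an intronless copy at chr11:48945354-48946190 on the minus strand. Their coding sequences, each of 720 bases, differ at 5 positions (99.3% identity). Coding bases 514 to 543 are shown because they hold 2 of these differences, marked in capitals.
Psme2: ggggaCgctgtagccaaggcttccaaggaC
Psme2b: ggggaTgctgtagccaaggcttccaaggaT
Of all stretches of 28 bases in the coding sequence of Psme2, about the length of a footprint, 80.38% also occur in listed Psme2b. Psme2b had 0 counts in all 6 RPF libraries and between 6 and 19 in the RNA libraries. Counts of these 2 genes are therefore uncertain, since how reads that match several transcripts were counted is not given in the sources used here. Of the 46 genes, 24 share no coding stretch of that length with any other annotated gene, and 9 share more than 50% of them.

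Library totals ran from 3827862 to 8459004 counts. Mitochondrially encoded transcripts took 49.8% to 58.2% of RNA counts and 2.28% to 5.22% of RPF counts, and the 46 genes took 0.351% to 0.435% of RNA counts and 0.579% to 0.629% of RPF counts. Levels are given as CPM, counts scaled to library size, with TMM factors over the 12 libraries together, and 3 counts corresponded to 0.235 to 0.822 CPM. *Rpl3l* was at 111, 149 and 135 CPM in WT footprints and 5.09, 2.58 and 7.44 CPM in KO footprints, and its RNA was at 625 to 786 CPM in WT and 73.6 to 84.9 CPM in KO, so every library matched its label. The summed cardiomyocyte markers ran from 51500 to 98900 CPM over the 12 libraries, and the atrial, fibroblast, endothelial, leukocyte and adipocyte markers were also detected. The first principal component of the RNA libraries (46.2% of variance) set WT 3, KO 1 and KO 3 apart from WT 1, WT 2 and KO 2, and that of the RPF libraries (38.2%) set WT 1 apart from the other 5. In bulk tissue, fewer cells of a type and less RNA per cell cannot be told apart.

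Among the 46 genes, RNA levels per kilobase of transcript were highest for beta subunits of the core. In WT hearts Psmb6 stood at 561 ± 102 CPM per kb (SD, n = 3), ahead of Psmb4 at 427 ± 46.6, the 19S ATPase Psmc3 at 408 ± 49.4 and Psmb5 at 397 ± 41.5. The last 3 lay within 1 SD of each other, so their order is not resolved. At the low end of the expressed genes were Psmf1, an inhibitor of the core also known as PI31, at 1.81 ± 0.444 CPM per kb and the chaperone Psmd5 at 1.68 ± 0.342. Footprints put Psmb6 first as well, at 209 ± 26.0 CPM per kb in WT, with Psmb5 at 160 ± 2.64 and Psmb4 at 128 ± 2.51. In KO footprints these 3 genes stood at 194 ± 19.5, 134 ± 11.1 and 118 ± 14.8, with Psma7 (120 ± 22) and Psmb3 (119 ± 3.82) level with Psmb4.

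Both tissue-restricted core subunits were at or near background. Psmb11 had 0 counts in all 12 libraries, and Psma8 had 0 or 1 count in each RNA library and between 0 and 22 counts in the RPF libraries. A count of 0 leaves room for up to 0.235 to 0.822 CPM, depending on the library, and covers counting error only. Neither passed the filter on low counts, nor did Psme2b in footprints, so that 44 genes were tested in RNA and 43 in footprints and in the comparison of both.

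**Figure D1:**
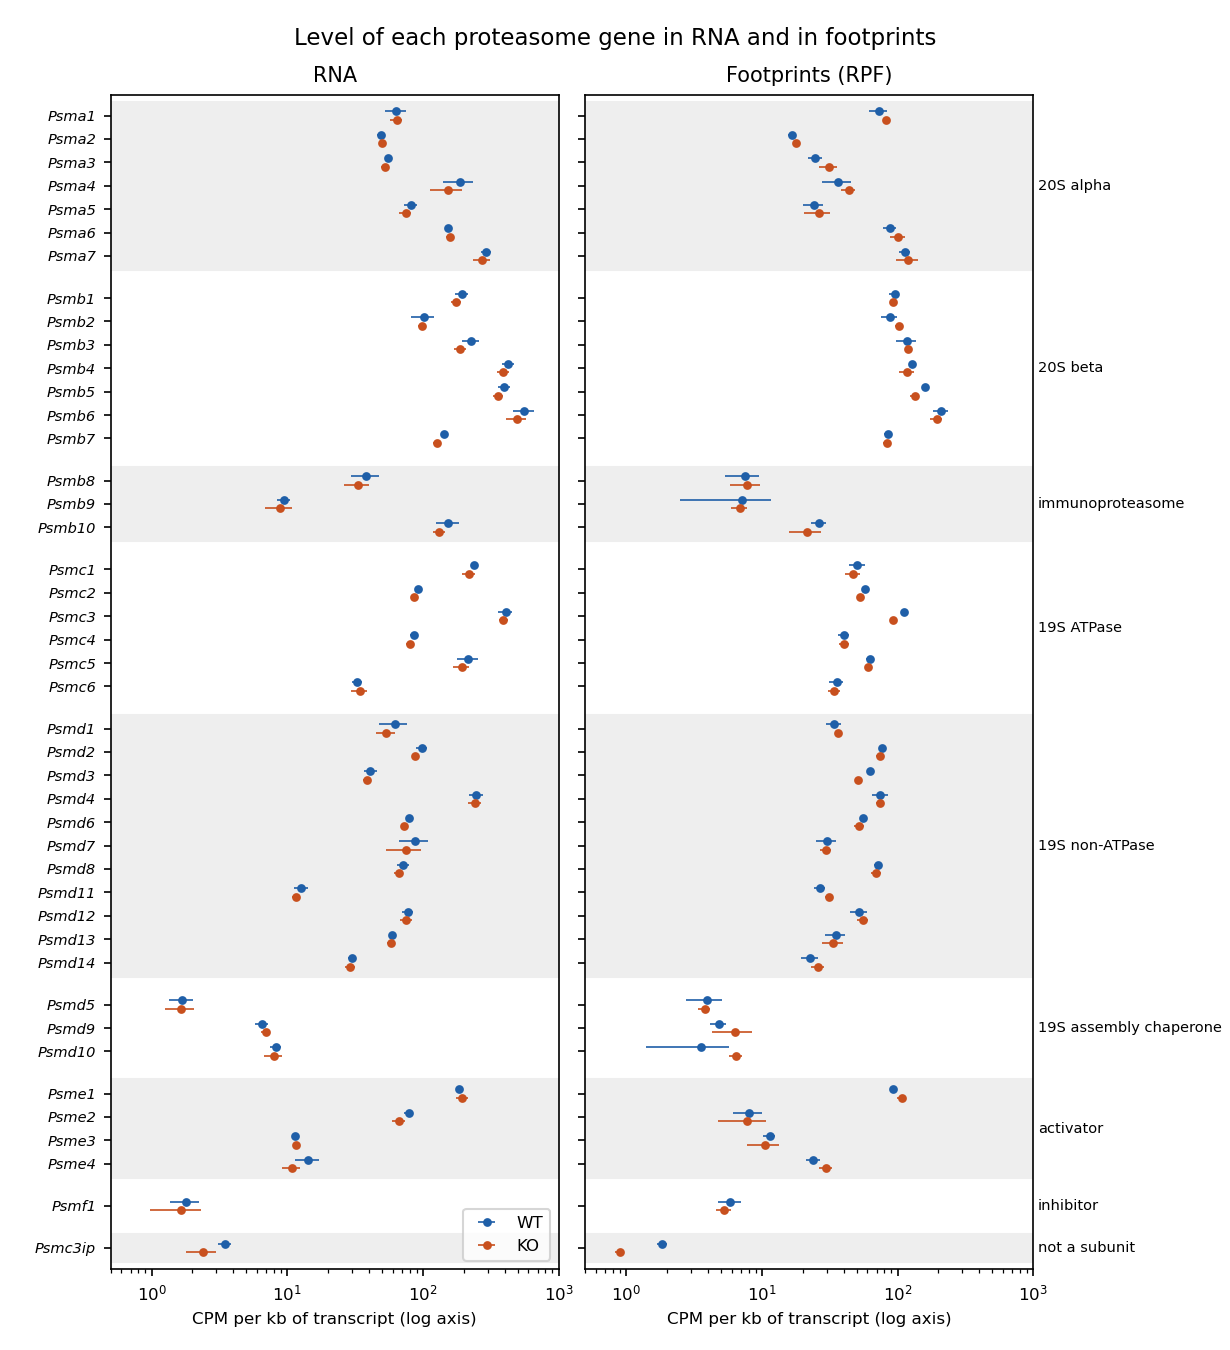
Level of each gene in RNA (left) and footprints (right), in CPM per kb of transcript on a log axis, mean and SD of 3 WT (blue) and 3 KO (orange) libraries. Psma8, Psmb11 and Psme2b, which are at or near 0 in footprints, are left out. The 19S subunits are scattered from 12.7 (Psmd11) to 408 (Psmc3) in WT RNA and lie closer together in footprints.

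The 19S subunits were unequal in RNA and much more even in footprints. Per kb of transcript, the SD of log2 levels among the 17 subunits was 1.25 ± 0.04 in WT RNA and 0.632 ± 0.0687 in WT footprints (mean and SD over 3 libraries), and 1.25 ± 0.0677 against 0.545 ± 0.0477 in KO. Every RNA library (1.19 to 1.32) lay above every RPF library (0.493 to 0.711). The highest subunit was Psmc3 in all 12 libraries. It exceeded the lowest by 28 to 37.1 times in RNA, where the lowest was always the lid subunit Psmd11, and by 3.13 to 6.03 times in footprints, where the lowest was Psmd14 in 5 of the 6 libraries and Psmd13 in the other. Psmd11 shows the shift most plainly. It had 38.4, 38.4 and 31.4 CPM in WT RNA and 35.0, 33.4 and 30.7 in KO RNA, the lowest of the 17 subunits per kb, and 79.5, 68.1 and 80.6 CPM in WT footprints and 85.0, 94.6 and 84.9 in KO footprints, where it was no longer the lowest. Psmc3 had 618 to 761 CPM in WT RNA and 588 to 684 in KO RNA, but 175 to 189 in WT footprints and 144 to 157 in KO footprints.

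ATPase and non-ATPase subunits stood apart in RNA and close together in footprints. The median ATPase stood at 140 ± 11.1 CPM per kb in WT RNA and the median non-ATPase subunit at 70.2 ± 5.94, while in WT footprints the medians were 54.0 ± 2.96 and 50.7 ± 5.44. The KO hearts gave 128 ± 5.79 and 62.9 ± 2.49 in RNA, and 50.1 ± 2.97 and 50.6 ± 2.04 in footprints. Beta subunits of the core behaved likewise, with an SD among the 7 of 0.906 ± 0.146 in WT RNA and 0.489 ± 0.0827 in WT footprints. The 7 alpha subunits did not: their SD was 1.00 ± 0.0793 in WT RNA and 1.07 ± 0.0507 in WT footprints, with Psma7 the highest in all 6 of these libraries and Psma2, whose transcript has a 3′ UTR of 2171 bases, the lowest.

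These spreads depend on the length used, because the region counted is not given in the sources used here. Per kb of coding sequence the 19S values were 1.05 in WT RNA and 0.506 in WT footprints, and those of the alpha subunits were 0.632 and 0.664. The contrast between RNA and footprints in the 19S subunits was thus present on both scales, and the alpha subunits showed none on either. Over all genes tested, the same SD ran from 2.59 to 2.80 in RNA libraries and from 2.18 to 2.26 in RPF libraries, a smaller relative narrowing than in the 19S particle. No test of that difference was made. The lowest count of any 19S subunit in any library was 122, so that counting error was small beside these spreads.

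**Figure D2:**
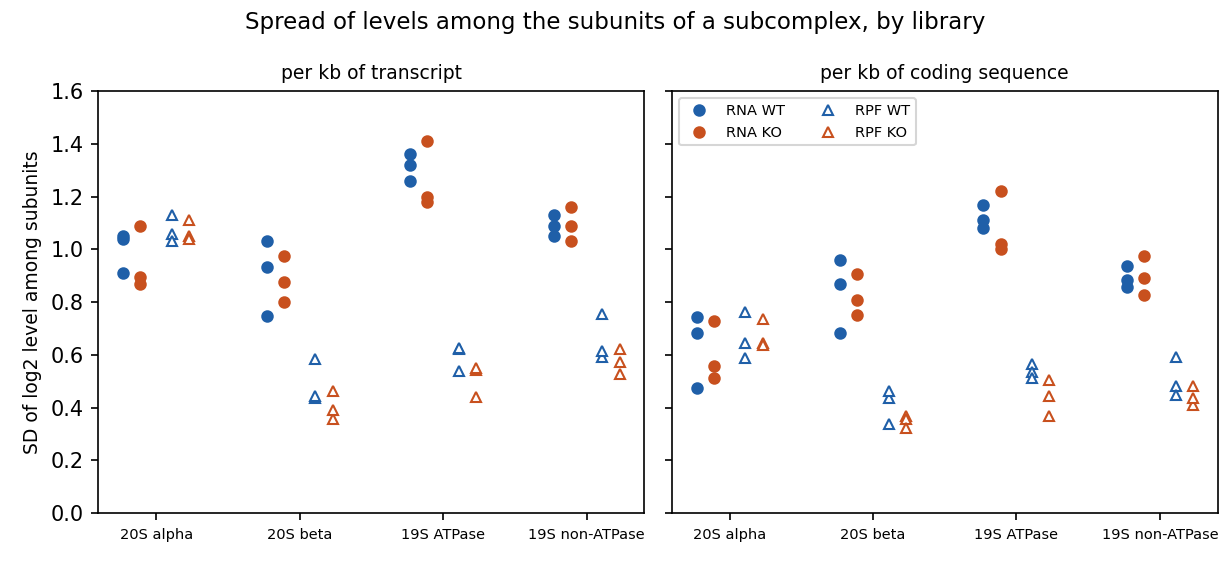
SD of log2 level among the subunits of each subcomplex, 1 point per library, per kb of transcript (left) and per kb of coding sequence (right), with filled circles for RNA, open triangles for RPF, WT in blue and KO in orange. For the 20S beta, 19S ATPase and 19S non-ATPase subunits all RPF points lie below all RNA points, whereas the points of the 20S alpha subunits overlap.

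The ratio of footprints to RNA was low for most of the family. Within WT hearts, 31 of 43 genes were lower in footprints than in RNA and 5 were higher (edgeR quasi-likelihood test, adjusted p below 0.05), where 35.6% of the 8044 genes tested were lower and 38.3% higher. In KO hearts 28 genes were lower and 5 higher, against backgrounds of 34.7% and 37.9%. In either direction 36 were called in WT and 33 in KO (backgrounds 73.8% and 72.6%), and 36 and 34 had an unadjusted p below 0.05 (75.5% and 74.6%). The median log2 ratio of the 43 genes was -0.91 in WT and -0.69 in KO, and that of all genes tested was 0.05 and 0.08. The zero of this ratio is set by the scaling, so a value says where a gene stands relative to other genes and not how many ribosomes a message carries. Among the 3889 genes averaging 50 or more counts in both assays the median was -0.55 in WT and 52.1% were lower. Beside them, 30 of the 40 proteasome genes in that range were lower, with a median of -0.97. That choice uses the RNA counts by which the ratio is divided. Applied to each assay alone, the same minimum kept 4304 genes in RNA and 7951 in footprints. It removes mainly genes with little RNA, so the lower median is partly built in and is not a finding about abundant messages. In KO hearts 50.9% of these 3889 genes were lower, beside 27 of the 40. When the libraries were rescaled on those 3889 genes alone, 20 of 40 were lower and 7 higher in WT (38.2% and 37.7% of all), and 18 lower and 7 higher in KO (37.4% and 37.5%).

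Core subunits were mostly low. In WT, 6 of 7 alpha subunits were lower in footprints with a median of -1.37, and 6 of 7 beta subunits with a median of -1.03. The exceptions were Psma1 (0.19, SE 0.17, adjusted p = 0.339) and Psmb2 (-0.21, SE 0.17, adjusted p = 0.272). Psma4 had the lowest value of the constitutive core: its RNA was at 256, 241 and 158 CPM in WT and 171, 232 and 136 in KO, and its footprints at 51.2, 31.4 and 45.2 in WT and 45.1, 50.5 and 56.9 in KO. No footprint value of Psma4 reached any RNA value, and scaled footprints were 5.11-fold lower than RNA in WT (log2 -2.35, SE 0.25, adjusted p = 2.42e-07) and 3.54-fold lower in KO. All 14 core subunits have coding sequences between 600 and 950 bases. Of the 1297 genes tested in that range 40.8% were lower in WT, with a median of -0.24, beside 12 of these 14, and 39.8% were lower in KO, beside 12 of 14 again. That background is matched on coding length and not on abundance. Among the 3889 genes averaging 50 or more counts in both assays, 52.1% were lower in WT and 50.9% in KO.

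In the regulatory particle the ATPases resembled the core, with 5 of 6 lower in WT (median -1.44), the exception being Psmc6 (0.12, SE 0.16, adjusted p = 0.517). Psmc1 had the lowest ratio among them, at 315 to 400 CPM in the RNA libraries and 68.0 to 88.1 in the RPF libraries (log2 -2.24 in WT, SE 0.17, and -2.20 in KO, SE 0.17). The non-ATPase subunits ranged from -1.73 to 1.08 around a median of -0.50 in WT, with 8 of 11 lower and 2 higher. Of all genes tested, 35.6% were lower and 38.3% higher in WT. The low ones included Psmd4, the ubiquitin receptor of the particle (-1.73 in WT, SE 0.17), and Psmd7, the partner of the deubiquitinase Psmd14 (-1.54, SE 0.23).

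Psmd11 and Psmd3, both lid subunits, were the 2 that were higher in footprints. The ratio of Psmd11 was 1.08 (SE 0.16, adjusted p = 9.75e-06) in WT and 1.42 (SE 0.16, adjusted p = 5.1e-07) in KO. Psmd3 had 82.1, 83.0 and 99.6 CPM in WT RNA and 86.2, 77.0 and 85.6 in KO RNA, below its 141, 132 and 131 CPM in WT footprints and 104, 112 and 111 in KO footprints. Its ratio of 0.61 (SE 0.15, adjusted p = 0.00127) in WT and 0.40 (SE 0.15, adjusted p = 0.022) in KO was not called in KO under median-of-ratios scaling (0.30, adjusted p = 0.067) or without WT 2 or any 1 KO number, nor in either genotype without the filter on low counts. In each of the 6 pairs of RNA and RPF libraries with the same genotype and number, which the labels do not tie to the same heart, the median ratio of the 11 non-ATPase subunits was above that of the 14 core subunits, by 0.333 to 0.876 on the log2 scale.

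Some of the proteins that attach to the proteasome or help to build it held the highest and lowest ratios. Others did not, among them the chaperones Psmd10 (-1.22 in WT, SE 0.375, edgeR adjusted p = 0.00769) and Psmd9 (-0.44, SE 0.24, adjusted p = 0.111). Psmf1 had 5.00, 7.40 and 8.27 CPM in WT RNA and 7.74, 3.29 and 7.69 in KO RNA, against 20.9, 27.0 and 19 in WT footprints and 17.5, 20.2 and 22.3 in KO footprints. Its ratio was the highest of the family, 1.68 (SE 0.28, adjusted p = 4.33e-05) in WT and 1.65 (SE 0.28, adjusted p = 5.75e-05) in KO, and no RPF library overlapped any RNA library. These RNA values rest on 12 to 44 counts a library for Psmf1 and 20 to 41 for Psmd5. The assembly chaperone Psmd5 was second in WT at 1.23 (SE 0.26), and stood at 1.19 (SE 0.26) in KO, below Psme4 and Psmd11, at 5.48 to 9.07 CPM in RNA and 12.6 to 22.8 in footprints. The activator Psme4, or PA200, which opens the core for ubiquitin-independent degradation, had 72.9, 109 and 96.0 CPM in WT RNA and 75.5, 58.1 and 75.9 in KO RNA, and 175, 137 and 156 CPM in WT footprints and 174, 214 and 190 in KO footprints. Its ratio was 0.75 (SE 0.18, adjusted p = 0.00144) in WT and 1.46 (SE 0.19, adjusted p = 2.4e-06) in KO, and the WT value was not called without WT 1 (0.47, adjusted p = 0.0558) or without the filter on low counts (0.35, adjusted p = 0.122).

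At the other end was Psme2, with 81.5, 76.3 and 69.3 CPM in WT RNA and 63.0, 71.5 and 57.8 in KO RNA, but 9.63, 7.86 and 5.85 in WT footprints and 4.31, 9.97 and 8.17 in KO footprints. Scaled footprints were 9.71-fold lower than RNA in WT (log2 -3.28, SE 0.26, adjusted p = 1.24e-08) and 8.59-fold lower in KO (log2 -3.10, SE 0.26). The part of the Psme2b copy shown above in this low value was not tested. Its partner in the PA28 ring, Psme1, with 35.96% of its coding stretches shared with other annotated genes, had a ratio of -0.99 (SE 0.15) in WT. Of the 7 other tested genes with more than 50% of their stretches shared with any annotated gene, 6 were low in WT, beside 31 of all 43 tested. They stood at -1.16 for Psma3 (92.44% shared), -1.76 for Psma5 (90.41%), -1.31 for Psmb5 (86.72%), -0.96 for Psmb3 (85.45%), -2.35 for Psma4 (62.71%) and -2.24 for Psmc1 (53.24%). The seventh, Psmd11, was high at 1.08 (54.11%). Unlike Psme2, with 80.38% shared with listed transcripts, these genes shared almost none with them: 2.03% for Psmb3 and 0% for the rest. Over the 43 genes the Pearson correlation of the ratio with the percent shared was -0.285 (Spearman -0.174), and the part of shared stretches in these ratios was not tested. Psme3, the nuclear member of the PA28 family, stood at -0.01 (SE 0.19).

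**Figure D3:**
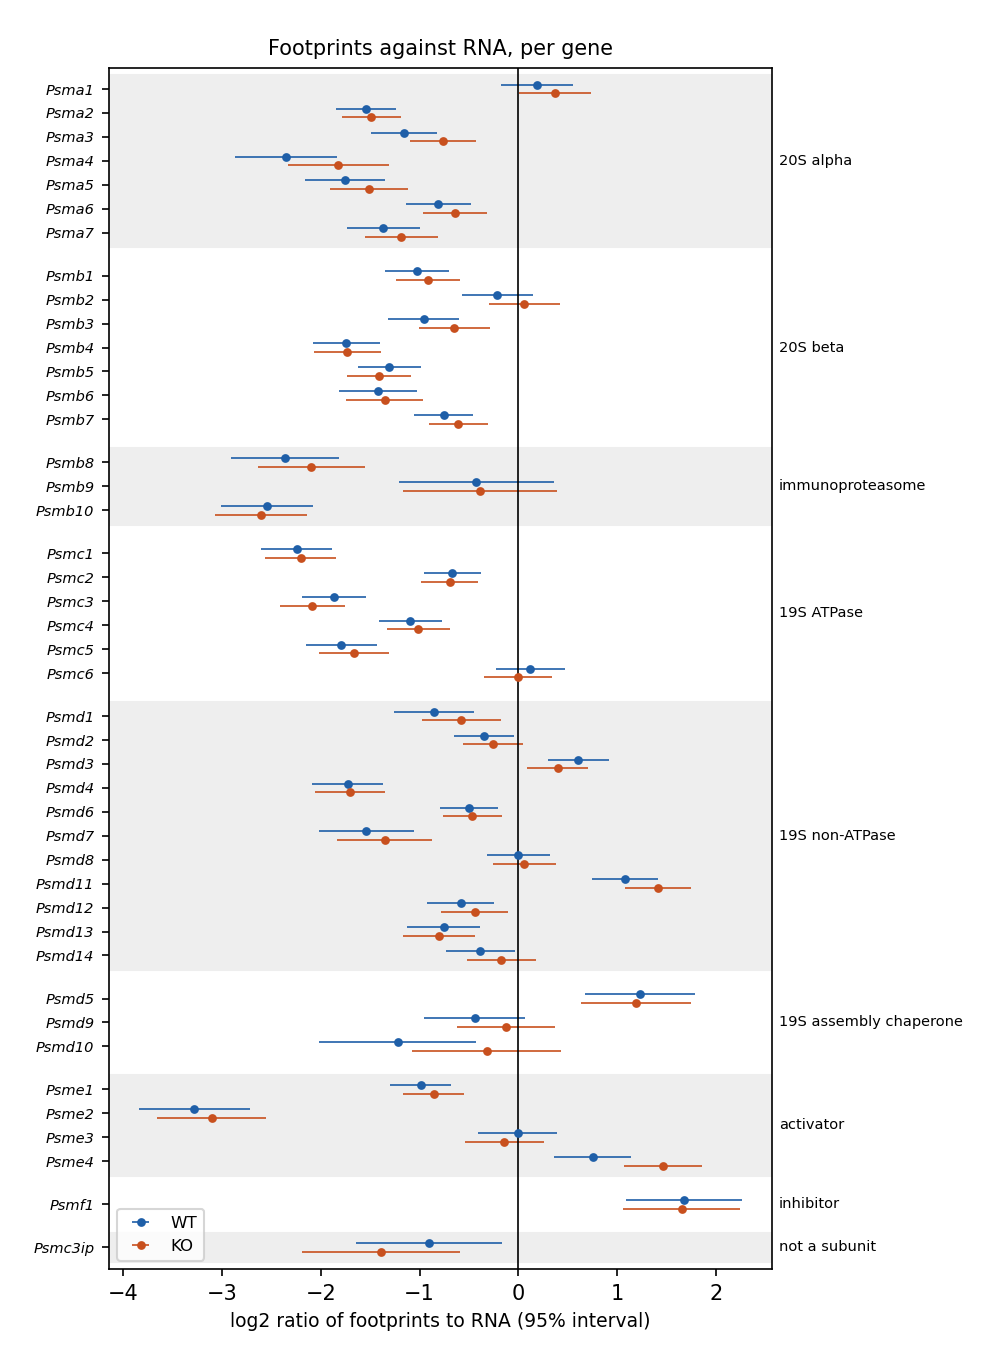
Log2 ratio of footprints to RNA for the 43 tested genes by role, with 95% intervals, WT in blue and KO in orange. Most genes lie left of 0, Psmd11, Psmd3, Psmd5, Psme4 and Psmf1 lie to the right in both genotypes, and the blue and orange points of most genes sit close together.

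The order of the ratios was alike in the 2 genotypes. Across the 43 genes the WT and KO ratios, which come from separate libraries fitted together, had a Pearson correlation of 0.974 and a Spearman correlation of 0.964, and over all 8044 genes the Pearson value was 0.976. The points share the transcript, its length and base composition. Genes of longer transcripts had higher ratios within the family (Pearson 0.578 with log2 transcript length, 0.533 with 3′ UTR length and 0.330 with log2 coding length, n = 43). The Spearman values were 0.458, 0.511 and 0.225. This is a description that rests on length measures that overlap each other. Over 7981 tested genes the ratio also rose with log2 coding length (Pearson 0.202, Spearman 0.204), so the relation with coding length is not particular to the family. Those with transcript length and 3′ UTR length were not computed over all genes.

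The immunoproteasome subunits made up a smaller part of the catalytic beta pool in footprints than in RNA. Psmb10, which takes the place of Psmb7, was the most abundant of the 3, at 222, 227 and 157 CPM in WT RNA and 157, 190 and 172 in KO RNA, and at 29.4, 38.1 and 36.4 in WT footprints and 35.2, 20.0 and 29.8 in KO footprints. Psmb8, the counterpart of Psmb5, had 63.1, 76.6 and 47.7 CPM in WT RNA and 45.1, 66.6 and 50 in KO RNA, and 8.32, 14.7 and 13.5 in WT footprints and 11.2, 10.5 and 16.3 in KO footprints. For both genes every RPF value was below every RNA value, with log2 ratios in WT of -2.54 (SE 0.22, adjusted p = 2.78e-08) and -2.36 (SE 0.26, adjusted p = 4.45e-07).

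Psmb9, the counterpart of Psmb6, differed from these 2. It had 12.9, 11.2 and 14.1 CPM in WT RNA and 10.4, 10.4 and 15.2 in KO RNA, and 3.68, 16.2 and 9.02 in WT footprints and 9.16, 8.08 and 10.6 in KO footprints. RNA and RPF libraries overlapped, and its ratio of -0.42 (SE 0.37, adjusted p = 0.31) in WT was not called, although it was without WT 2 (-1.13, adjusted p = 0.0164) and without the filter (-0.83, adjusted p = 0.041). The WT footprint library with the lowest Psmb9 and Psmb8 is WT 1, the one that stood apart on the first component.

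The constitutive counterparts were each at a higher level than the subunit that replaces them in all 12 libraries, apart from the RNA of Psmb7 and Psmb10. Psmb5 had 388, 366 and 316 CPM in WT RNA and 298, 350 and 316 in KO RNA, and 142, 146 and 146 in WT footprints and 131, 111 and 121 in KO footprints. Psmb6 had 492, 497 and 354 CPM in WT RNA and 359, 473 and 356 in KO RNA, and 145, 185 and 171 in WT footprints and 170, 139 and 155 in KO footprints. RNA of Psmb7 was at 166, 170 and 165 CPM in WT and 157, 140 and 145 in KO, close to or below that of Psmb10, and its footprints were at 95.3, 94.1 and 107 in WT and 93.0, 93.0 and 104 in KO, above Psmb10 throughout.

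Psmb8, Psmb9 and Psmb10 together took 22.1% ± 1.30 (SD, n = 3) of the CPM of Psmb5 to Psmb10 in WT RNA and 12% ± 2.09 in WT footprints. In KO the shares were 21.6% ± 0.915 and 11.8% ± 1.51. By library, RNA ran from 20.7% (Wilson 95% interval 19.7 to 21.8 in WT 3) to 23.3% (22.2 to 24.5 in WT 2), and footprints from 9.78% (8.85 to 10.8 in WT 1) to 13.9% (12.8 to 15.2 in WT 2), with no overlap between assays. KO and WT did not differ beyond the spread in either assay (exact two-sided permutation p = 0.7 in RNA and 1 in footprints, where 3 against 3 libraries cannot give a p below 0.1). Of the 3 pairs, Psmb10 made up 54.4% ± 4.87 of Psmb7 plus Psmb10 in WT RNA and 25.9% ± 2.66 in WT footprints, and Psmb8 made up 14.8% ± 2.20 of its pair with Psmb5 in RNA and 7.73% ± 1.91 in footprints. The pair of Psmb9 and Psmb6 stood at 2.86% ± 0.853 in RNA and 5.17% ± 2.77 in footprints, values whose libraries overlapped.

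**Figure D4:**
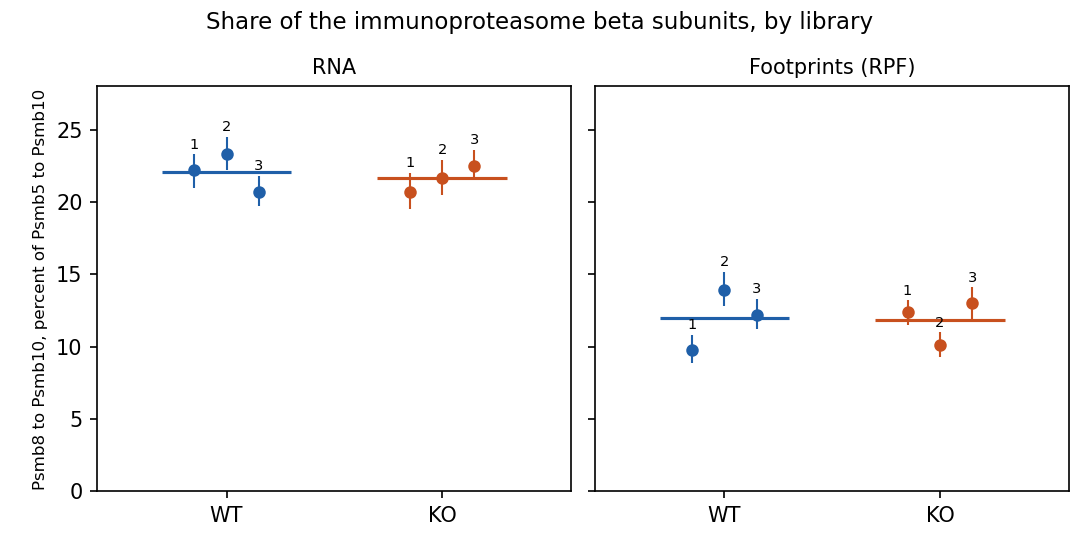
Percent of Psmb8, Psmb9 and Psmb10 in the summed CPM of Psmb5 to Psmb10, by library with Wilson 95% intervals, replicate numbers above the points and horizontal lines at the group means. The RNA libraries sit between 20.7 and 23.3 and the RPF libraries between 9.78 and 13.9, and WT and KO overlap in each assay.

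The comparison of genotypes asks whether loss of *Rpl3l* alters the messages, the footprints or their ratio. For the proteasome genes no difference was called in any of the 3. In RNA 0 of 44 genes had an adjusted p below 0.05 (edgeR quasi-likelihood test, background 0.0119% of 8379 genes, which was *Rpl3l* alone), and 0 had an unadjusted p below 0.05 (background 2.54%). In footprints 0 of 43 were called (background 0.00897% of 11153), and 3 had an unadjusted p below 0.05 (background 5.96%). For translational efficiency (TE), the difference between genotypes in the ratio of footprints to RNA, 0 of 43 were called (background 0% of 8044), and 1 had an unadjusted p below 0.05 (background 3.73%). DESeq2 also called 0 of these genes in each comparison, with 0 in RNA, 4 in footprints and 1 in TE at an unadjusted p below 0.05 (1.15%, 5.44% and 3.77% of all genes by DESeq2). The 95% interval of the log2 fold change lay within 2-fold either way for 42 of 44 genes in RNA, 41 of 43 in footprints and 36 of 43 in TE, which bounds most of these differences but does not show that the genotypes are equal. P-values here measure the spread among 3 libraries a group.

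RNA estimates were below 0 for 36 of the 44 genes, with a median of -0.09, where 50.9% of all genes tested were below 0 with a median of -0.01. They included 7 of 7 beta subunits (median -0.15), 3 of 3 immunoproteasome subunits (median -0.21) and 16 of 17 19S subunits (median -0.09). None of the 36 passed the test. Summed atrial markers ran from 3010 to 4800 CPM in WT RNA and from 3710 to 7570 in KO RNA. Summed ventricular cardiomyocyte markers ran from 71300 to 98900 CPM in WT RNA and from 70300 to 82000 in KO RNA. Of the latter, 5 of 6 had RNA estimates below 0 (median -0.17), with none called. The part of atrial or ventricular content in the proteasome estimates was not tested. The lowest estimates were those of Psmc3ip (-0.53, SE 0.32), Psme4 (-0.40, SE 0.20) and Psma4 (-0.27, SE 0.24), and the highest those of Psme2b (0.58, SE 0.48), Psmd9 (0.10, SE 0.19) and Psme1 (0.08, SE 0.16), all with an adjusted p of 0.999.

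The RNA libraries were also divided along their first component. The sides were drawn from the same RNA values that are compared here, so separation between them is built in and is not a test. On the side of WT 3, KO 1 and KO 3, 16 of 44 genes lay below all 3 libraries of the other side (background 18.3%), 5 lay above (background 17.8%) and the others overlapped. The median difference of the 44 was -0.04, beside 0.03 for all genes tested. The widest differences were at Psmd7 (-0.64 on the log2 scale), Psma4 (-0.63) and Psmb8 (-0.50) below and Psmf1 (0.64) above. As that side holds 2 KO libraries and 1 WT library, a term for the side was added to the RNA fit. That term comes from the same data, so the shifts it brings are a description only. The estimate of Psma4 then came to -0.07 and that of Psmb6 to -0.03 from -0.17, while Psme4 came to -0.49 (adjusted p = 0.417), and 0 of the 44 were called.

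The signs of the footprint estimates by role are a description, as none of the 43 genes passed the test and their median SE was 0.145. All 7 alpha subunits had estimates above 0 (median 0.17) and all 6 ATPases below 0 (median -0.09). The medians were -0.05 for the beta subunits and 0.00 for all genes tested, of which 49.8% were below 0. Psmd10, the chaperone gankyrin, had the highest estimate at 0.84 (SE 0.42, adjusted p = 0.834). Its footprints were at 1.55, 6.65 and 7.07 CPM in WT and 8.07, 9.79 and 9.63 in KO, so that the KO libraries lay above all WT libraries, but the low value of WT 1 rests on 13 counts, and without that library the estimate was 0.395. Next were Psmd9 (0.40, SE 0.26) and Psma3 (0.31, SE 0.15), the latter at 72.6, 61.3 and 77.5 CPM in WT and 83.6, 103 and 78.4 in KO.

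At the lower end of the footprint estimates, Psmc3ip was at -1.04 (SE 0.59) with 2.14, 2.42 and 2.56 CPM in WT and 1.25, 1.12 and 1.10 in KO, which is 9 to 21 counts a library. Psmd3 (-0.32, SE 0.12, unadjusted p = 0.0217) and Psmb10 (-0.30, SE 0.21) followed. Psmd3, Psmc3 (-0.29, SE 0.12) and Psmb5 (-0.27, SE 0.13) were the 3 genes with an unadjusted p below 0.05, each with an adjusted p of 0.834 and with every KO footprint library below every WT library. In all, 5 of 43 genes had all KO footprints below all WT footprints (Psmb5, Psmc2, Psmc3, Psmc3ip and Psmd3, background 5.77%) and 3 had them above (Psma3, Psmd10 and Psmd11, background 6.27%). In RNA the same held for Psmb7, Psmc3ip and Psmd6 below (background 3.19%) and Psme3 above (background 4.14%).

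**Figure D5:**
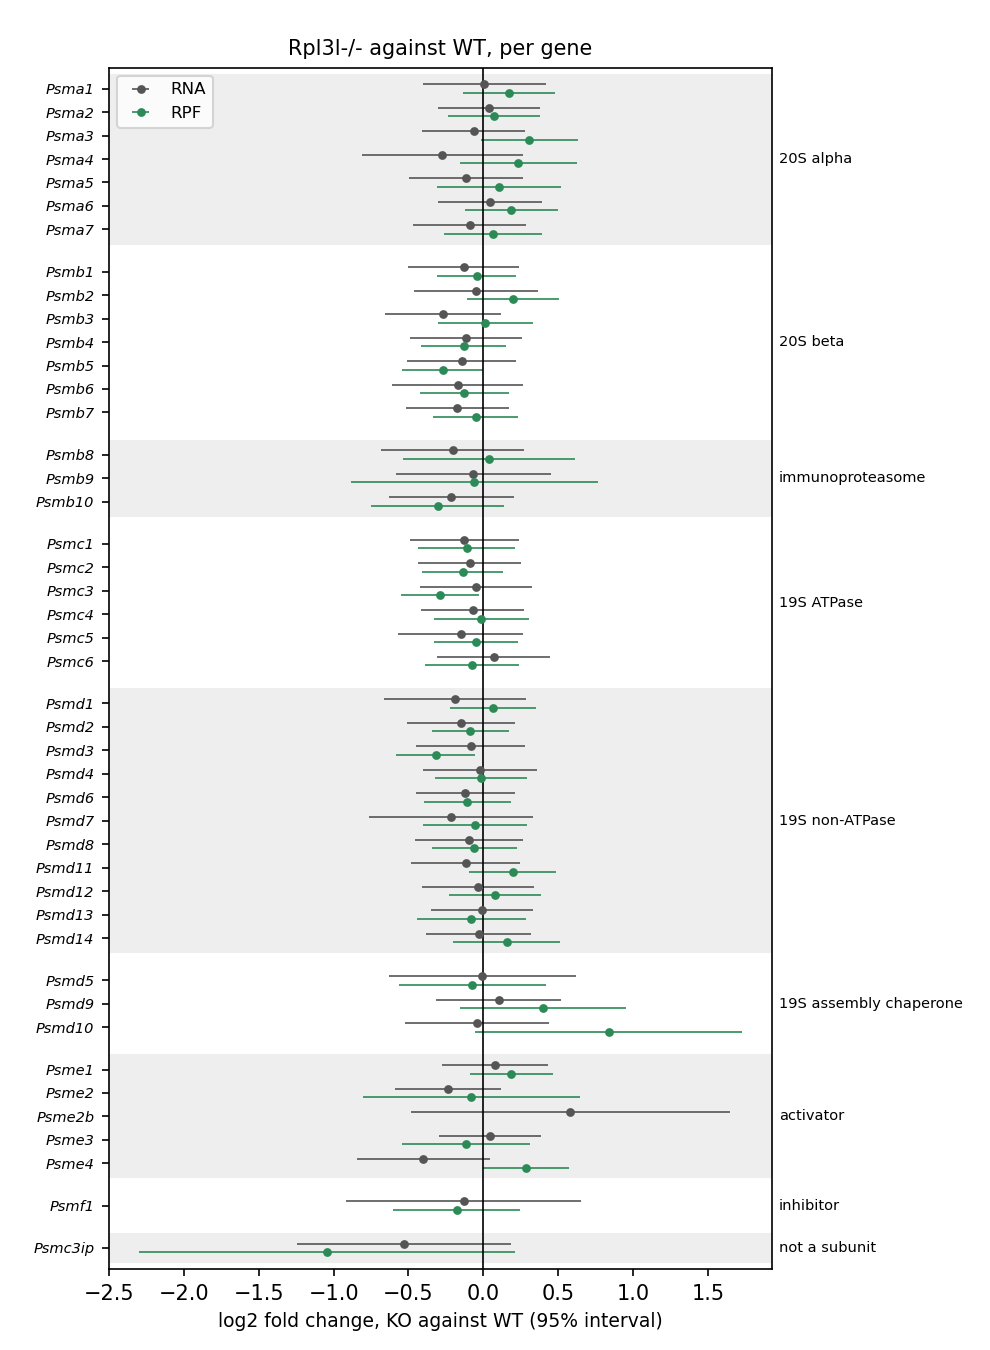
Log2 fold change of KO against WT with 95% intervals for RNA (grey, 44 genes) and footprints (green, 43 genes), by role. Nearly all points lie within 0.5 of 0, the widest intervals belong to Psmc3ip, Psme2b and Psmd10, and no gene was called.

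The estimates of TE were above 0 for 32 of 43 genes (median 0.11, beside 0.01 for all genes tested), among them 13 of the 14 constitutive core subunits, with none called. Psme4 had the lowest unadjusted p of the family, 0.0138, with an estimate of 0.71 (SE 0.26, adjusted p = 0.9997). Both terms contributed, as its RNA estimate was -0.40 and its footprint estimate 0.29, each with libraries that overlapped between genotypes. The other high estimates were those of Psmd10 (0.91, SE 0.52) and Psma4 (0.53, SE 0.33), and the lowest those of Psmc3ip (-0.48, SE 0.51), Psmc3 (-0.22, SE 0.21) and Psmd3 (-0.21, SE 0.21). Estimates of TE use the RNA libraries with the division described above.

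Other genes of the pathway were read from the same fits. None of the 7 assembly and structural genes outside the symbol rule (the core chaperones Psmg1 to Psmg4 and Pomp, the ubiquitin receptor Adrm1 and the small lid subunit Sem1) was called between genotypes, where the RNA estimates ran from -0.32 (Psmg4, SE 0.29) to 0.13 (Adrm1, SE 0.21). All 7 were lower in footprints than in RNA in both genotypes (35.6% of all genes in WT and 34.7% in KO), with medians of -1.78 in WT and -1.71 in KO, from Psmg2 at -0.88 (SE 0.17) to Psmg4 at -2.48 (SE 0.46) in WT. Of 10 genes for substrate shuttles, the segregase Vcp and enzymes or adaptors bound to the proteasome, 7 were higher and 2 lower in WT (median 1.86, beside 38.3% and 35.6% of all genes). They ran from the shuttle receptor Ubqln4 (4.50, SE 0.25), whose WT RNA was low at 2.37 to 3.34 CPM, down to the proteasome-bound deubiquitinase Uchl5 (-2.57, SE 0.28). Of 4 genes of ubiquitin supply and activation, the ubiquitin-activating enzyme Uba1 was higher (1.78, SE 0.15) and 3 were lower, the lowest being Rps27a (-4.64, SE 0.29), which encodes ubiquitin fused to a ribosomal protein. Nfe2l1, the transcription factor that drives proteasome genes when the proteasome is impaired, had a ratio of 2.27 (SE 0.17) and was not called between genotypes (RNA 0.04, SE 0.18, and footprints -0.09, SE 0.14).

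Genes of antigen presentation and the interferon response, with which the immunoproteasome subunits are known to be induced, had ratios mostly above 0, unlike Psmb8 and Psmb10. Of 13 tested, 10 were higher in footprints in WT and 1 was lower (median 1.21, beside 38.3% and 35.6% of all genes). The higher ones included Tapbp (4.36, SE 0.21), whose WT RNA was low at 4.29 to 6.01 CPM, and B2m (2.45, SE 0.23). The lower one was Isg15 (-0.77, SE 0.23). High ratios were not particular to this list. Median ratios in WT were also above 0 for the fibroblast (2.68), endothelial (2.45), leukocyte (1.41) and adipocyte (1.36) markers. They were below 0 for the ventricular cardiomyocyte (-0.79) and atrial (-1.17) markers. No gene of this list was called between genotypes, where footprint estimates ran from -0.89 (Ifit3, SE 0.57) to 0.28 (Gbp2, SE 0.21). Summed leukocyte markers were at 133 to 191 CPM in WT RNA and 134 to 209 in KO RNA, and at 402 to 419 in WT footprints and 414 to 503 in KO footprints, with Cd3e at 0 in all RNA libraries. The part of leukocyte RNA in the immunoproteasome levels was not tested.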

How the data were processed

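The authors deposited raw counts, whole numbers per transcript name, in 1 table for each of the 12 libraries. Per the submitters' processing notes, cutadapt 1.18 and Bowtie2 2.4.2 were used, with no role or order given. Genome build, region counted, strand use and multiply matching reads are not given in the sources used here, and a count over coding sequence alone would shift levels per kb and ratios. Genotype, assay and number came from each library's title. Genes and lists were chosen with earlier results of these data known.

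edgeR 4.0.16 in R 4.3.3 (filterByExpr with a minimum count of 10, TMM, glmQLFit and glmQLFTest) was fitted to all genes, on 6 libraries for KO against WT in RNA or RPF and on 12 for TE and for RPF against RNA. P-values were Benjamini-Hochberg adjusted over all genes tested, with a threshold of 0.05. The fits, except that of RPF against RNA in KO, were also run on simulated counts with the same spread for every gene. That run checks the procedure and not the results given here. SE is the absolute log2 fold change over the square root of F. Levels are joint TMM CPM, as means ± SD of 3 libraries. Ratios within a library pair used a pseudocount of 0.5 CPM. Shares have Wilson 95% intervals, and the floor is 3 counts. These cover counting error only. Names matched GENCODE M21 for all 46 genes, and shared stretches are exact matches of 28 bases. Named genes are those with an adjusted p below 0.05, or else the 3 highest and 3 lowest estimates per comparison, Psmb5 to Psmb10, and the 5 highest and lowest ratios. Others were named after their values were seen. Lists of regulators, ubiquitin supply, muscle ligases and cell type markers were also read. Alternatives used DESeq2 1.42.0, median-of-ratios scaling, other filters, leaving out mitochondrial genes with the 10 most abundant others, a replicate block, a term for the side of the RNA libraries, coding length, and the libraries of each genotype and number left out in turn. Figures used matplotlib.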

Additional observations from a re-analysis of the deposited data

How the results depend on the processing

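The count of proteasome genes called between genotypes was 0 under every alternative run, and with the replicate block 28 were lower and 5 higher in footprints than in RNA in each genotype. Same-numbered WT and KO libraries did not deviate together in every pair (correlations of -0.183, 0.321 and 0.384 in RNA, and 0.0378, 0.0109 and 0.000652 in footprints), so the numbers were not taken as pairing the hearts. RNA and RPF libraries of one genotype and number, which the labels do not tie to one heart, had correlations of 0.0766, 0.154 and 0.0839 in WT and 0.107, 0.108 and 0.122 in KO, and all 6 correlated best with their own number, a hint from the data only. With the block, the footprint estimate of Psmb9 turned from -0.06 to 0.12. Without the filter on low counts, 3 rather than 5 genes were higher in footprints than RNA in WT. With a mean of at least 50 counts, 20 were lower in WT and 18 in KO, Psmb9 turned to 0.12 in WT and 0.11 in KO, its TE estimate came to -0.00635, and Psmb7 was not called (-0.21 in WT, adjusted p = 0.158, and -0.10 in KO, adjusted p = 0.489, edgeR). That change of scaling set moved the zero of the ratio for all genes. With coding length, the spread over both genotypes came to 1.05 in RNA and 0.467 in footprints for 19S subunits and to 0.616 and 0.669 for alpha subunits. Leaving out the libraries of each genotype and number in turn turned the sign of estimates near 0. The ranges were -0.29 to 0.0317 for Psmb9 RNA, and in footprints -0.10 to 0.0131 for Psmb7, -0.18 to 0.19 for Psmb8 and -0.46 to 0.53 for Psmb9. In TE they were -0.21 to 0.0303 for Psmb5, -0.0912 to 0.30 for Psmb6, -0.36 to 0.71 for Psmb9 and -0.32 to 0.21 for Psmb10. The KO minus WT difference in immunoproteasome share, in percentage points, lay between -1.11 and 0.185 for RNA and between -1.27 and 0.813 for footprints. For the spread this check was chosen after the data were seen, and it moved no value by more than 1 SD. The cause of these changes was not tested. Over all alternatives, 130 of 141 counts and main values, 726 of 759 values of single genes and 193 of 200 subcomplex medians kept their direction and side of the threshold or, for values without a test, moved by less than 1 SD or, for counts, by no more than 1.5 times. Of the other 11 counts and main values 7 moved and 4 turned in sign. Low counts limit Psme2b (6 to 19 in RNA), Psmf1 (12 to 44 in RNA), Psmd5 (20 to 41 in RNA), Psmc3ip (9 to 21 in footprints), Psmd10 (13 to 114 in footprints), Psmb9 (31 to 117 in footprints) and Psme2 (48 to 116 in footprints).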
